A study of Mus musculus with 36 samples.

Results

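The genes described here encode proteins of the cytosolic ribosome, followed in quadriceps muscle of mice that lack a sarcoglycan. Members were all oligonucleotides on the arrays with 1 gene symbol that begins with Rpl or Rps and a digit, or that reads Rplp0, Rplp1, Rplp2 or Rpsa. Ribosomal protein kinases and pseudogenes were left out. This gave 43 oligonucleotides for 41 genes, counted by symbol, out of 8129 oligonucleotides for 6540 named genes. The large subunit is represented by 26 genes on 27 oligonucleotides and the small subunit by 15 genes on 16, since Rplp0 and Rpsa have 2 oligonucleotides each. Rplp2 is not among the members.

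BSG mice lack beta-sarcoglycan and GSG mice lack gamma-sarcoglycan, both membrane proteins of muscle fibres, and both strains develop muscular dystrophy. Quadriceps RNA was taken at 1 and at 2.5 weeks, then every 2 weeks from 4 to 14 weeks, and last at 20 weeks. Each strain gave 2 mice at each of the 9 ages, which makes 36 animals. Of the 36 arrays, 32 compared an age in Cy5 with the preceding age in Cy3, and 1 closing array per loop put the 1-week mouse in Cy5 against the 20-week mouse in Cy3. The 4 loops, 2 per strain, therefore each hold 9 mice, littermates were used for most ages, and the spread between mice does not cover differences between litters. Wild-type and MDX mice are not analysed here, so a change with age cannot be set against healthy muscle. Log ratios carry no level, so neither the labelled tissue nor a level in 1 strain against the other can be read from them.

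Cytosolic ribosomes are assembled in the nucleolus from ribosomal RNA and a fixed set of proteins, each needed in like amounts, and their number sets how much protein a fibre can make. The mRNAs of these proteins are abundant in almost every cell and carry a pyrimidine tract at their 5′ end, through which mTOR signalling controls their translation. Muscle of young mice grows fast and makes many ribosomes, and dystrophic muscle passes through rounds of fibre loss and regeneration. The family has many processed pseudogenes, and whether an oligonucleotide also binds their transcripts was not tested.

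The arrays varied in quality, and this touches each value below. Duplicate spots of the same oligonucleotide correlated with a median r over arrays of 0.543 for all oligonucleotides and 0.805 for the members, but on 9 arrays the r over all oligonucleotides was below 0.3. Array medians over all oligonucleotides lay between -0.06 and 0.04. Ratios were read as log2 of Cy5 over Cy3, a direction that is likely but not stated in the sources used here. Its basis is newborn muscle: of 13 oligonucleotides for genes high in the newborn, 7 fell between 1 and 20 weeks in BSG and 8 in GSG, where 0.849% and 3.03% of all oligonucleotides did, and 0 rose. Dlk1, an imprinted gene of fetal muscle, changed by -3.05 in BSG and -3.54 in GSG (limma, adjusted p = 1.68e-08 and 6.25e-10). With the ratios turned, each sign below would reverse.

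As a group the ribosomal protein genes did not follow age in the same way in both mice of an age. In BSG the median of the 43 members in the mean of the 8 later ages against 1 week was -0.16 on the log2 scale, with 37 members below 0. In GSG it was 0.01, with 21 below 0 and 22 above. The same medians over all 8129 oligonucleotides were -0.01 and -0.02.

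The 4 loops differed widely. A difference between loops holds the mice, the shared 1-week mouse and the error of the arrays, which cannot be told apart. Array quality was also uneven between loops. Of the 9 arrays with a duplicate-spot r below 0.3, only the GSG array of 4 against 2.5 weeks belonged to loop 2. The rest belonged to loop 1 of BSG or GSG, and their values enter the later ages of that loop. In BSG loop 1 the median of the members ran from -0.34 at 20 weeks to 0.31 at 8 weeks, and in loop 2 from -0.72 at 14 weeks to -0.23 at 2.5 weeks. In GSG loop 1 it ran from -0.13 at 20 weeks to 0.80 at 6 weeks, and in loop 2 from -0.49 at 12 weeks to -0.03 at 20 weeks. All 8 ages lay below 0 in loop 2 of both strains, whereas loop 1 crossed 0 in both. Over the 8 later ages the median was 0.03 and -0.41 in the loops of BSG and 0.31 and -0.27 in those of GSG, so the loops of a strain differed by more than the strains did.

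**Figure D1:**
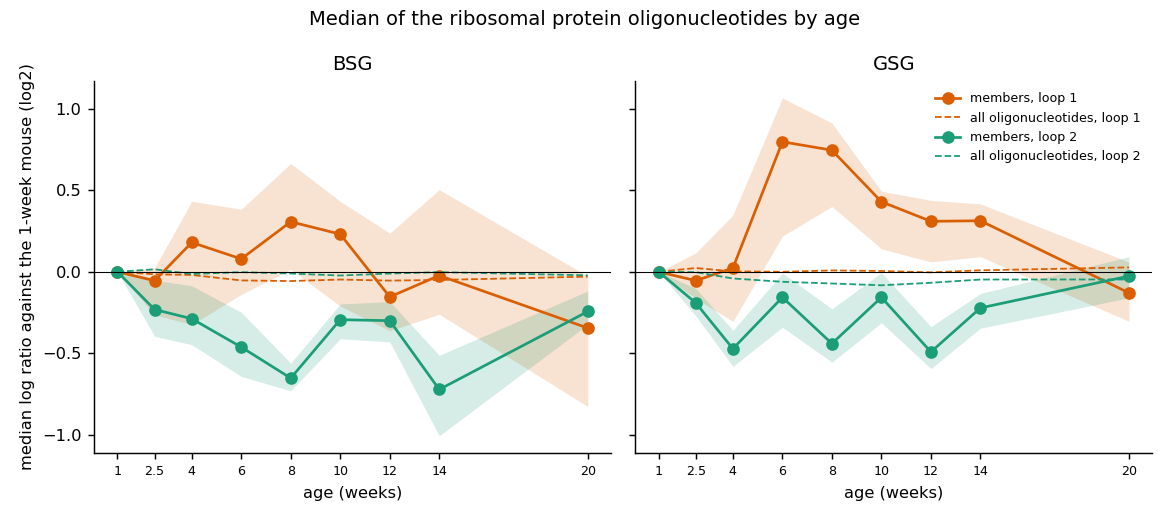
Median log2 ratio of the 43 ribosomal protein oligonucleotides to the 1-week mouse of the same loop (solid lines with points) against age in weeks, with the range between the quartiles shaded, for BSG (left) and GSG (right); dashed lines give the median of all oligonucleotides. Loop 2 stays below 0 in both strains, while loop 1 of GSG reaches 0.80 at 6 weeks.

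The subunits had similar medians over the later ages and differed more at single ages. In the mean of the later ages the 27 large-subunit oligonucleotides had a median of -0.16 in BSG and 0.01 in GSG, and the 16 small-subunit oligonucleotides of -0.15 and 0.04. At 6 weeks in GSG loop 1, the high point of the series, the medians were 0.54 for the large and 0.88 for the small subunit. Of the 43 members, 19 were below 0 in both loops of BSG and 0 above 0 in both. In GSG, 10 were below 0 and 3 above 0 in both loops. The loops thus had opposite signs for 24 members in BSG and 30 in GSG, beside 49.4% and 43.2% of all oligonucleotides.

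Tested singly with limma, adjusting over all 8129 oligonucleotides, almost no member passed for a change with age. At 20 weeks against 1 week, 0 members passed in BSG, where 1.28% of all oligonucleotides did, and 0 in GSG, where 3.74% did. At an unadjusted p under 0.05 there were 3 members in BSG and 1 in GSG, all lower, beside 11.6% and 14.7% of all oligonucleotides. In the mean of the 8 later ages 0 members passed in BSG against 0.0738% of all, and 0 had an unadjusted p under 0.05, as 6.68% of all did. In GSG 1 member, Rpl22, passed against 0.652% of all. The F test over the 8 ages called 0 members in BSG and 0 in GSG, beside 0.0984% and 0.590% of all, and had an unadjusted p under 0.05 for 0 and 1, beside 4.00% and 7.81% of all. With numbers of calls this low, 0 or 1 of 43 is near the background. The median residual SD in this fit was 0.57 for the members and 0.31 for all oligonucleotides. A typical member thus needed a larger change to pass, and few calls do not show that the members were stable.

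How large a change could have gone unseen is given by the intervals. The SE of a member's mean change had a median of 0.36 in each strain. The 95% interval lay within 2-fold of no change for 29 of 43 members in BSG and 36 in GSG. At 20 weeks it did so for 24 and 34. For the remaining members a 2-fold change cannot be set aside.

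Rpl22, a large-subunit protein that also binds other RNAs, was the member called. In GSG its log2 ratio to 1 week in loop 1 was -0.81 at 2.5 weeks, -1.09 at 4, -1.05 at 6, -0.63 at 8, -0.78 at 10, -0.66 at 12, -0.71 at 14 and -0.64 at 20 weeks. In loop 2 it was -0.14, -2.17, -2.22, -1.93, -1.74, -1.36, -1.08 and -0.95 at the same ages. All 16 later GSG mice thus lay below their 1-week mouse. The mean change was -1.12 ± 0.27 (SE), with a 95% interval from -1.67 to -0.57 (limma, adjusted p = 0.0488). With a term for the dye, where 1.35% of all oligonucleotides pass, the adjusted p was 0.0252.

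A single spot carries much of that value. On the loop 2 array of 4 against 2.5 weeks the duplicate spots of Rpl22 read -3.99 and -0.12, and since mice of a loop are linked through successive arrays, their mean of -2.05 enters each later age. Only 6 of 1548 member values have duplicate spots over 2 apart. With the spot near 0 alone on that array, the loops gave -0.80 and -0.72 and the mean change was -0.76 ± 0.21 (SE), with an adjusted p in limma of 0.124, or 0.0128 with the dye term. Without the array the change was -0.82 (adjusted p = 0.123), and with the dye term -0.76 (adjusted p = 0.0264). With each of the 36 arrays left out in turn, the change ran from -1.49 to -0.82 and the call was kept for 8 of the 36, or for 33 of 36 with the dye term. The call was lost without most single BSG arrays too, where the change itself stayed at -1.12. In BSG, Rpl22 was 0.26 in loop 1 and -0.58 in loop 2 over the later ages, which lie on opposite sides of 0.

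**Figure D2:**
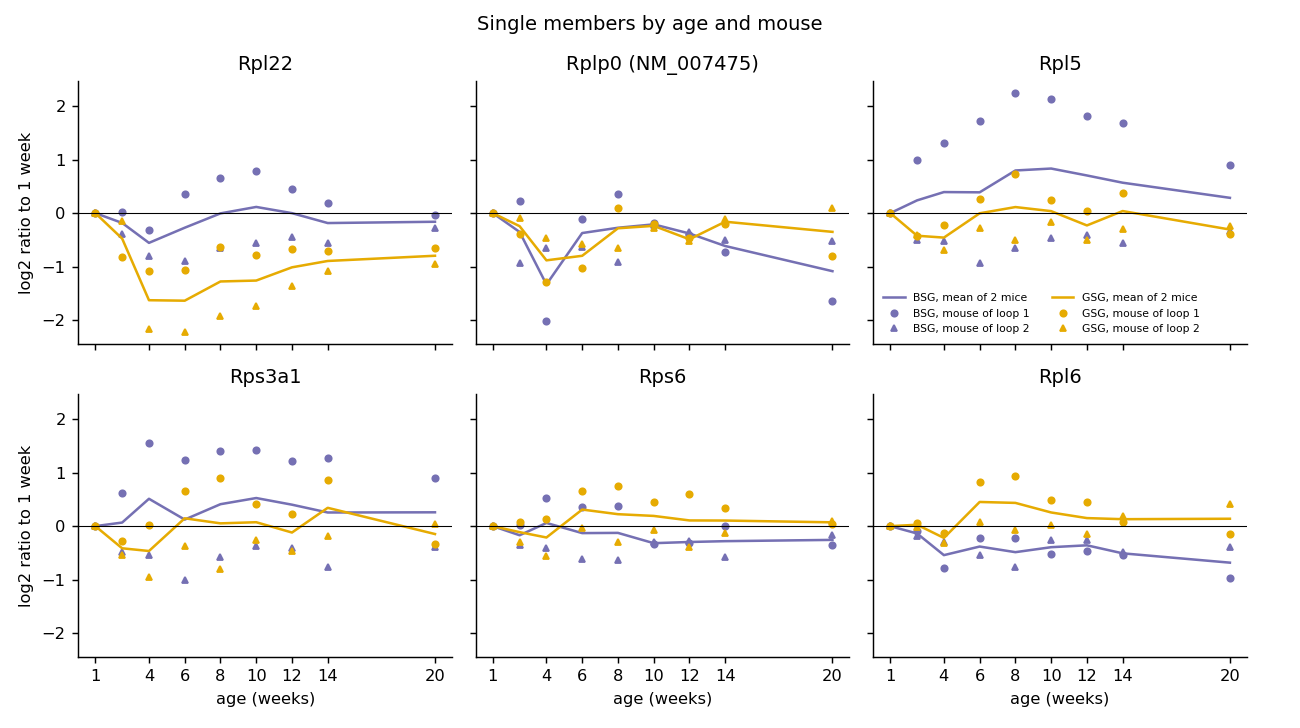
Log2 ratio to the 1-week mouse against age in weeks for 6 members, with each mouse as a point (circles loop 1, triangles loop 2) and the mean of 2 mice as a line, BSG in purple and GSG in yellow. Rpl22 lies below 0 in all 16 GSG mice, and the loops of BSG part widely for Rpl5 and Rps3a1.

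After Rpl22 the lowest mean over both strains belonged to Rplp0, Rpl3 and Rpl8. Rpl3 and Rpl8 lie near the peptidyl transferase centre, where peptide bonds are made. Rpl3 was below 0 at 8 of 8 ages in both BSG loops, with loop means of -0.86 and -0.62, and its mean of -0.74 ± 0.38 (SE) did not pass (limma, adjusted p = 0.765). In GSG its loop means were -0.15 and -0.36. Rpl8 was also below 0 at each age in both BSG loops, with loop means of -0.67 and -0.46, and in GSG they were -0.15 and -0.32. At 20 weeks in BSG the lowest unadjusted p values were those of Rpl41, Rplp0 and Rpl8, with changes of -0.95, -1.08 and -0.77 (limma, adjusted p = 0.254, 0.365 and 0.388). These 3 passed only when the duplicate spots were kept apart (limma, adjusted p = 0.0184, 0.0457 and 0.0321). The share of all oligonucleotides called in that fit was not counted, so the 3 cannot be set against a background.

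The highest means belonged to Rpl5, which carries 5S ribosomal RNA into the large subunit, Rps3a1, Rpl10 and the NM_011029 oligonucleotide of Rpsa. The other Rpsa oligonucleotide had -0.19 in BSG and -0.11 in GSG. For Rpl5 the BSG mice of loop 1 lay between 0.90 and 2.24 and those of loop 2 between -0.94 and -0.33, with no overlap. Rps3a1 behaved likewise, with 0.61 to 1.56 in loop 1, and in loop 2 all 8 ages below 0. On the first array of BSG loop 1, which compared 2.5 with 1 week, Rpl5 read 1.28 and Rps3a1 0.99, and those values enter each later age of that loop. In GSG the loops of both genes also lay on opposite sides of 0 over the later ages, Rpl5 at 0.08 and -0.39 and Rps3a1 at 0.31 and -0.44. Rpl10, which joins late in large-subunit assembly, had means of -0.07 in BSG and 0.28 in GSG.

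Rplp0 and Rplp1 form the stalk that calls elongation factors to the ribosome. The 2 oligonucleotides with the symbol Rplp0 carry different gene identifiers in the platform annotation, and whether the one to U89419 reads Rplp0 was not tested. Over the 36 arrays their log ratios correlated with r = 0.131, as a description. The one designed to NM_007475 had loop means of -0.57 and -0.59 in BSG and -0.54 and -0.33 in GSG, all below 0. Its lowest value, -2.02 at 4 weeks in BSG loop 1, rests on 1 array with a log ratio of -2.11, and the next array read 2.04. The one designed to U89419 had -0.55 and 0.06 in BSG and -0.17 and -0.44 in GSG. Rplp1 had 0.04 and -0.34 in BSG and 0.56 and -0.01 in GSG.

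Rpsa, a small-subunit protein also described as a laminin receptor precursor, was likewise read by 2 oligonucleotides, which correlated with r = 0.545. Over the later ages the one to NM_011029 had -0.03 and -0.14 in the loops of BSG and 0.54 and -0.08 in those of GSG. The one to AJ279835 had -0.20 and -0.17, and 0.16 and -0.38. Rps6, the small-subunit protein that S6 kinases phosphorylate, had 0.04 and -0.42 in BSG and 0.38 and -0.21 in GSG. In each strain the loops of Rps6 lay on opposite sides of 0.

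The question of whether BSG and GSG muscle differ was put to the change from 1 week, since levels cannot be compared. No strain difference of a member passed after adjustment, either at 20 weeks or in the mean of the later ages (limma, 0 of 43 and 0 of 43). In both comparisons 0 of all 8129 oligonucleotides passed, so these counts tell nothing particular to the members. At an unadjusted p under 0.05, 0 members differed at 20 weeks, where 7.21% of all oligonucleotides did, and 1, Rpl22, in the mean, where 3.56% did. For Rpl22 the change in BSG minus that in GSG was 0.97, with a 95% interval from 0.19 to 1.75 (limma, adjusted p = 1.00). A temporal Hotelling test rebuilt from the description of the method, on these strains alone and with polynomials of degree 2 over the later ages, called 0 members, and 0 of 43 had an unadjusted p under 0.05 where 4.40% of all oligonucleotides did. Its smallest adjusted p over all oligonucleotides was 0.121, so no gene passed. The median SE of a member's strain difference was 0.51, and its 95% interval lay within 2-fold for only 3 of 43 members, so equal change in the strains is not shown either.

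**Figure D3:**
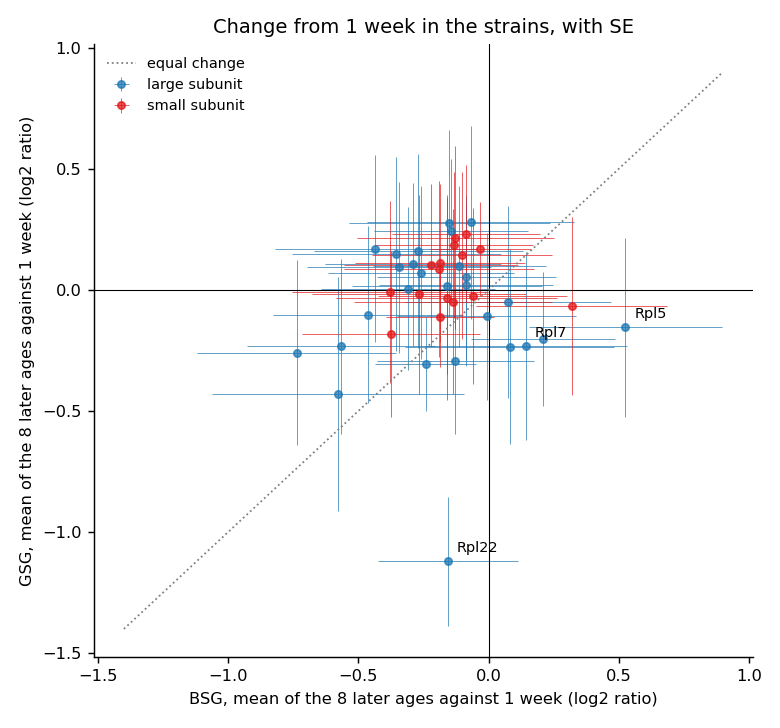
Mean log2 ratio of the 8 later ages to 1 week in BSG (horizontal) and GSG (vertical) for the 43 members, with SE bars, large subunit in blue and small subunit in red. Most members lie left of 0 in BSG and on both sides of 0 in GSG, and Rpl22 stands apart at -1.12 in GSG.

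The members had an excess of Cy5 over Cy3 signal in common. On 30 of 36 arrays their median log ratio was above 0, from -0.21 to 0.96 with a middle value of 0.27, although Cy5 carried the later age on 32 arrays and the earlier age on the 4 closing arrays. Of the 32 arrays with the later age in Cy5, 26 had a median above 0. On the closing arrays, where a higher ratio means more signal at 1 week, the members had medians of 0.59 and 0.44 (BSG loops) and of 0.36 and 0.29 (GSG loops). The pattern was noticed in these data and then tested, so its p values describe the same arrays.

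**Figure D4:**
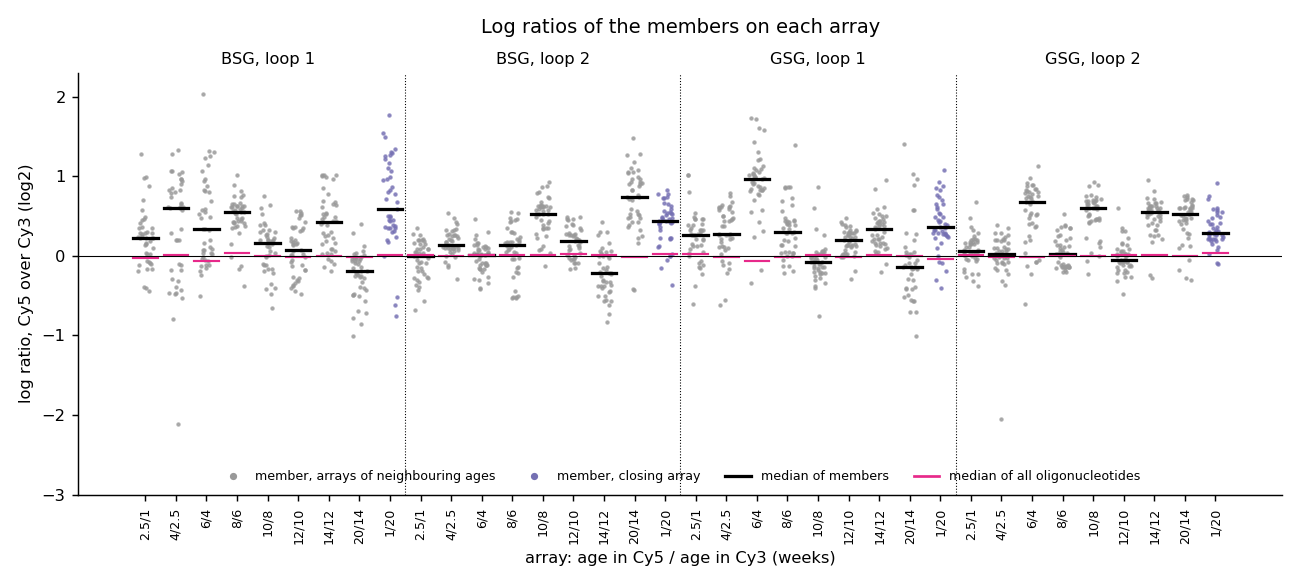
Log2 ratio of Cy5 over Cy3 of each member on each of the 36 arrays, in loop order, with the ages in Cy5 and Cy3 (weeks) on the horizontal axis; black bars give the median of the members, pink bars that of all oligonucleotides, and purple points the 4 closing arrays. Black bars lie above 0 on 30 arrays, including all 4 closing arrays.

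Around a closed loop the log ratios of true abundances sum to 0. For the members the 9 arrays of a loop summed to a median of 2.61 and 1.64 in the loops of BSG and 2.66 and 2.67 in those of GSG. For all oligonucleotides the sums were 0.07, 0.11, 0.07 and 0.13. Written as an offset per array, Cy5 exceeded Cy3 by a median of 0.29, 0.18, 0.30 and 0.30 in the members of the 4 loops. The excess was thus present in each loop and of like size in 3 of the 4.

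In a limma fit with the ages and an offset for Cy5 per oligonucleotide, the offset of the members had a median of 0.28 with quartiles of 0.22 and 0.33. Over all oligonucleotides the median was 0.01 with quartiles of -0.07 and 0.10. Of the 43 members, 41 had an offset above 0. The offset was called above 0 for 36 members, against 19.5% of all oligonucleotides, and below 0 for 2, against 16.6%. Duplicate spots of the members correlated better over arrays than those of most oligonucleotides, with a median r of 0.766 against 0.322. Among the oligonucleotides with an r of at least 0.6, 44.9% were called above 0, and so were 30 of the 33 members in that class.

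The offsets of Rpl7, Rpl6 and Rpl27a, all of the large subunit, were the highest, at 0.39 ± 0.05, 0.38 ± 0.05 and 0.37 ± 0.06 (SE). By loop, in the order BSG 1, BSG 2, GSG 1 and GSG 2, Rpl7 had 0.38, 0.30, 0.50 and 0.36, all above 0. Rps6 had 0.33, 0.30, 0.32 and 0.46, and its log ratio was above 0 on 33 of 36 arrays. Rps2 and the U89419 oligonucleotide of Rplp0 went the other way, each with an offset of -0.13 ± 0.04 (SE) and below 0 in 4 of 4 loops. The duplicate spots of Rps2 did not correlate over the arrays (r = -0.05). Rpl22, Rpl23, Rpl41, the NM_007475 oligonucleotide of Rplp0 and the AJ279835 oligonucleotide of Rpsa had offsets of 0.11, 0.10, 0.18, 0.24 and 0.09, which were not called.

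**Figure D5:**
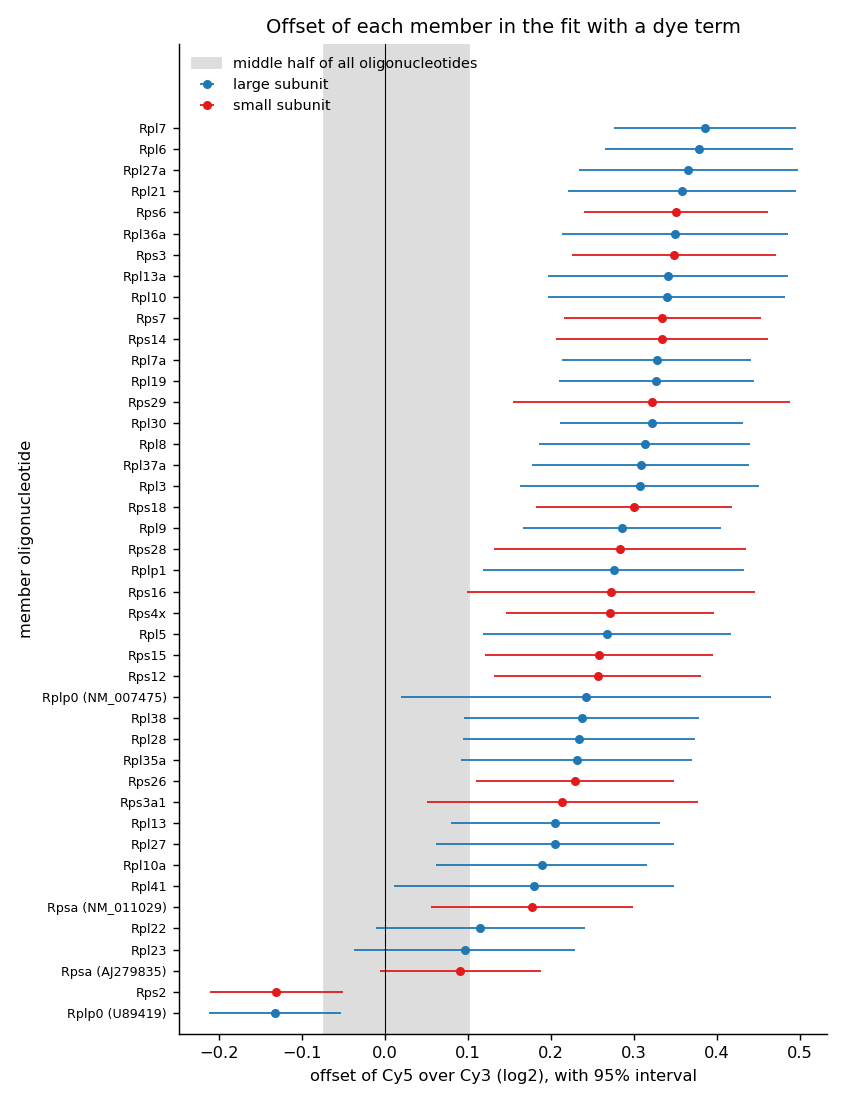
Offset of Cy5 over Cy3 (log2) of each of the 43 members with its 95% interval, in order of size, large subunit in blue and small subunit in red; the grey band spans the quartiles of all oligonucleotides. All but 2 members lie above 0, and Rpl7 is highest at 0.39.

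The age values above are the same with and without this term, because each loop is closed and holds each age once in Cy5 and once in Cy3. What the term changes is the spread: the residual SD of the members fell from a median of 0.57 to 0.39, and that of all oligonucleotides from 0.31 to 0.27. With it, the 95% interval of the mean change lay within 2-fold for 38 members in BSG and 41 in GSG. Calls in the mean of the later ages stayed at 0 in BSG and at Rpl22 in GSG. At 20 weeks in BSG, 11 members, all lower, then had an unadjusted p under 0.05, beside 15.7% of all oligonucleotides, and 0 passed after adjustment. Fewer offsets were called without the 9 arrays of poorly correlated duplicate spots, where the loops are broken: 41 of 43 members were above 0, the median was 0.19, and 4 were called, against 3.35% of all. The median SE of a member's offset was 0.106 on those 27 arrays and 0.0618 on all 36.

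Members also rose and fell together from array to array. Over the 36 arrays the pairwise correlation of the members' log ratios had a median of 0.451, with 87.6% of 903 pairs above 0, and without ages and offset it was 0.483. For all oligonucleotides the medians were -0.00352 and -0.000977, and for the 1974 with well correlated duplicate spots 0.05 and 0.07. These are descriptions over arrays that share mice. The median of the large subunit followed that of the small subunit with r = 0.889 after ages and offset were removed.

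Single members took part unequally. Against the median of the other members, Rpl38, Rpl9 and Rpl35a had r = 0.916, 0.913 and 0.913 without ages and offset, followed by Rps15 at 0.906, and Rps6 had 0.828. Rps2 and the U89419 oligonucleotide of Rplp0 had -0.31 and -0.29, the 2 that also had an offset below 0. The duplicate spots of Rps2 did not correlate (r = -0.05), so its value may be noise, and those of the U89419 oligonucleotide had r = 0.47. Rpl22 had 0.339. Among other oligonucleotides, picked after their values were seen, those closest to the members' median were Egfr, Tgfa and Sars2 (r = 0.913, 0.907 and 0.902). They encode a growth factor receptor, its ligand and a mitochondrial seryl-tRNA synthetase. Their duplicate spots correlated with r = 0.50, 0.27 and 0.67, so Egfr and Tgfa were less well reproduced than most members.

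Promoters are shown for the 3 members that followed the others most closely among those with 1 annotated start, and for Rps6. They are also shown for Rpl22, which was called, and for Rps2. The r of Rps2 with the other members was negative, but its duplicate spots did not correlate. RefSeq promoter windows of the mouse assembly GRCm38.p6 held 33 of the 41 genes. Each sequence runs 5′ to 3′ from 100 bases before the annotated start to 20 bases after it. Capitals mark CTTT within the sense strand near the start and CCGGAAG, an ETS factor motif, on either strand. The stretches are chr11:114668480-114668599 (plus strand) for Rpl38, chr5:65391412-65391531 (minus strand) for Rpl9, chr10:80292331-80292450 (plus strand) for Rps15, chr4:86857348-86857467 (minus strand) for Rps6, chr17:24719963-24720082 (plus strand) for Rps2, and chr4:152324336-152324455 and chr4:152325626-152325745 (both plus strand) for the annotated starts of Rpl22.
Rpl38: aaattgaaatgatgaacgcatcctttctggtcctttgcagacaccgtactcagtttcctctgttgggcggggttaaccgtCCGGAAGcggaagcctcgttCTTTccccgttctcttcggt
Rpl9: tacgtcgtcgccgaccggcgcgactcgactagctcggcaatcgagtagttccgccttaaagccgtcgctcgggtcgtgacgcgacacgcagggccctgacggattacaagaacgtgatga
Rps15: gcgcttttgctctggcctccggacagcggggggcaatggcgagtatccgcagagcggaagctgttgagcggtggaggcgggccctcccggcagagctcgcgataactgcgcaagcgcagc
Rps6: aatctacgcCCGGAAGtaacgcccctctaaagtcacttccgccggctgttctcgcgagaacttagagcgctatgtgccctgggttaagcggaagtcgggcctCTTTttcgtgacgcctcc
Rps2: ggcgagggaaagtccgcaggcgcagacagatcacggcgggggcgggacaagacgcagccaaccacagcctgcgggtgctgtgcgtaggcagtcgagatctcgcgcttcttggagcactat
Rpl22, upstream start: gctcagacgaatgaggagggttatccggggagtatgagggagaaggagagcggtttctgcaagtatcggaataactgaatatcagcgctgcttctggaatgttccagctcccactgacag
Rpl22, downstream start: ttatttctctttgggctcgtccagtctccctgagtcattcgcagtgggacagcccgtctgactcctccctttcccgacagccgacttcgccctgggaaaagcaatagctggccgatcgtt

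CTTT from 5 bases before to 10 bases after the start, on the sense strand, stood in the windows of 6 of 33 genes, or 15.8% of 38 windows, against 5.61% of 32851 mouse windows. CCGGAAG, on either strand of the 300 bases, stood in 12 genes, or 31.6% of windows against 8.86%. AAGATGGC, a YY1 motif, stood in 3 genes, or 13.2% of member windows against 2.75%, and TATAAA, the TATA box, in 5 genes, or 13.2% against 13.6%, both on either strand. Rpl38 and Rps6 hold both CTTT and CCGGAAG in the stretches shown, while Rpl9 and Rps15, which followed the other members as closely, hold neither in their windows. Rps2 holds CCGGAAG and TATAAA in its window outside the stretch shown, and the upstream start of Rpl22 holds AAGATGGC and TATAAA likewise. Annotated starts can lie some bases from the true one, and a match of letters is a description only.

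Other parts of the translation machinery were read from lists of genes. In the mean of the later ages 0 of 9 mitochondrial ribosomal protein oligonucleotides, 0 of 17 for initiation factors, 0 of 15 for elongation and release factors, 0 of 18 for ribosome biogenesis, 0 of 9 for RNA polymerases I and III, 0 of 8 for tRNA synthetases and 0 of 5 for other ribosome-linked proteins passed in either strain. Of all oligonucleotides 0.0738% passed in BSG and 0.652% in GSG, so 0 in lists this small is near the background. The medians of these lists ran from -0.14 to 0.08 in BSG, while those of GSG ran from -0.26 to -0.01. Eef2, the translocation factor, read by 3 oligonucleotides, had -0.89, -0.47 and 0.22 in BSG, and Eef1a1, which brings aminoacyl-tRNA to the ribosome, had -1.09 and -1.02, none of which passed. Fau, whose product is a ribosomal protein outside the naming rule, had -0.20 in BSG and -0.27 in GSG.

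Of 19 oligonucleotides for mTOR and S6 kinase signalling, 2 fell in BSG and 1 in GSG at 20 weeks, and 0 rose. Of all oligonucleotides 0.849% and 3.03% fell. In the mean of the later ages 0 of the 19 passed, beside 0.0738% of all in BSG and 0.652% in GSG. Rps6kb2, an S6 kinase, fell by 1.18 in BSG (limma, adjusted p = 0.0373) and was -0.98 in GSG (adjusted p = 0.0516). The M33422 oligonucleotide of Igf1r, the IGF1 receptor, fell by 0.65 in BSG (limma, adjusted p = 0.0449), the other of its oligonucleotides was -0.24 and did not pass, and Akt1, a kinase upstream of mTOR, fell by 1.07 in GSG (limma, adjusted p = 0.00788). Rps6 itself was -0.26 in BSG and 0.07 in GSG at 20 weeks.

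The offset of Cy5 was found in other lists too. It was called above 0 for 13 of 17 initiation factor and 9 of 15 elongation and release factor oligonucleotides. The same held for 6 of 9 of mitochondrial ribosomal proteins and 7 of 10 of muscle fibre genes, whose median of 0.31 exceeded that of the members. Duplicate spots in these lists had a median r of 0.66 to 0.81. Over all oligonucleotides 19.5% were called above 0, and 44.9% of those with an r of at least 0.6. It was called above 0 for 5 of 19 signalling and 2 of 11 macrophage oligonucleotides. For ribosome biogenesis the count was 7 of 18, for tRNA synthetases 4 of 8 and for fibroblast genes 5 of 10. Of 6 erythroid oligonucleotides 1 was called above 0 and 4 below 0, where 16.6% of all were called below 0. The cause of the offset was not tested.

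In whole muscle, fewer cells of a type and less RNA per cell cannot be told apart. Of the marker lists, macrophage genes had a median change of 0.55 in BSG and 0.47 in GSG over the later ages, with 10 of 11 and 11 of 11 above 0 and 3 called higher in GSG at 20 weeks, where 0.713% of all were. Of 10 fibroblast oligonucleotides 4 were called lower in GSG and 1 in BSG at 20 weeks, where 3.03% and 0.849% of all were. Over the later ages 1 was called lower in GSG, where 46 of all 8129 were. Of 20 for proliferating cells 1 was called lower in each strain at 20 weeks, and of 6 erythroid ones 1 in GSG, beside the same shares of all. In GSG, 1 of 20 is near the background. Genes of proliferating cells had -0.19 and -0.13, fibroblast genes -0.14 and -0.45, endothelial genes -0.24 and -0.29, erythroid genes -0.22 and 0.01, lymphocyte genes -0.07 and 0.04, and muscle fibre genes 0.16 and 0.34. Their part in the members' values was not tested.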

How the data were processed

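RNA of 36 quadriceps was linearly amplified and hybridised in pairs to 36 spotted long-oligonucleotide arrays. The authors scanned the arrays with GenePix and normalised them with the smida R package. The deposited values are normalised log ratios, treated here as log2 of Cy5 over Cy3, though the base and direction are not given in the sources used here. Duplicate spots were averaged and no filter was applied. Gene symbols came from the platform annotation.

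Per oligonucleotide, 8 age effects per strain against 1 week were fitted with limma 3.58.1 in R 4.3.3, with Benjamini-Hochberg adjustment over 8129 oligonucleotides and a threshold of 0.05. A further fit added a dye term. Log ratios give no counts, so the number of arrays limits precision. Tables were handled in Python 3.11.15 (numpy 2.4.6, pandas 2.3.3, matplotlib 3.10.9), and the tests were checked on simulated data. Members and lists were chosen with earlier results of these data known. Genes were named when called, when among the 4 highest or lowest mean changes, as stalk proteins, Rpsa or Rps6, or for the smallest p in a list.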

Additional observations from a re-analysis of the deposited data

Results flagged for a closer look

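Rpl6, Rpl13a and Rps3 lay below 0 in both BSG loops and above 0 in both GSG loops over the later ages. In GSG loop 2 they were barely above 0, at 0.02, 0.01 and 0.05, with 4 of 8 ages below 0 for each. The share of all oligonucleotides with such signs was not counted. The change from 1 week in BSG minus that in GSG was -0.61 for Rpl6, -0.50 for Rpl13a and -0.34 for Rps3. For each of the 3 the difference itself did not pass (limma, adjusted p = 1.00 over all oligonucleotides).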

How the results depend on the processing

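No called value changed sign in 279 recomputed values of 22 results, and 246 were labelled unchanged. That label was given to a count of like size, a call that was kept, or a median that moved by less than the spread between loops. Many medians could not move, since a dye term, a block or duplicate spots kept apart leave them the same. The spread between loops is also wide enough to hold most changes on leaving a loop out. The 246 are thus no measure of stability. Medians of the members, which lie near 0, did change sign: over the later ages from -0.16 to 0.03 in BSG without loop 2, and in GSG from 0.01 to -0.27 without loop 1, to -0.02 with arrays scaled and to the values below without the 9 arrays of poorly correlated spots, and at 20 weeks in GSG from -0.06 to 0.0028 with arrays scaled. The call of Rpl22 in the mean of the later ages in GSG was lost (0 members called) with any loop left out (range 0 to 0), with arrays centred or scaled, with duplicate spots apart, without moderation, and without the 9 arrays of poorly correlated spots, with or without a dye term. Its adjusted p in limma ran from 0.0231 with loops as a random block to 1.00. With 1 value per animal and the loop as replicate block it was 0.0352, and the block changed no other call. That fit takes the ages of a loop as independent, although they share arrays, so its p is no separate support for the call. With duplicate spots apart, 3 members were called at 20 weeks in BSG. Without the 9 arrays 1 was called at 20 weeks in GSG, Rpl22. The shares of all oligonucleotides called in these fits were not counted.

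The median at 20 weeks in BSG was -0.34 to -0.24 with a loop left out and -0.11 with arrays scaled. Without the 9 arrays the GSG median was -0.35 at 20 weeks and -1.29 over the later ages, or -0.15 and -0.58 with a dye term. The GSG loops are then no longer closed, so without a dye term the offset of Cy5 does not cancel in the age values. The -1.29 can therefore not be read as a fall with age. How much of the shift the offset makes up was not tested. With a loop left out, the medians over the later ages ran from -0.41 to 0.03 in BSG and from -0.27 to 0.31 in GSG. The offset had a median of 0.19 and 4 calls without the 9 arrays, and 29 to 37 calls with a loop left out. With a loop left out, the share of all oligonucleotides called was not counted. Alternatives for the offset, single arrays and single spots, and the dye term without the 9 arrays, were chosen after seeing the data. Leaving out paralogues and updating symbols kept the same 43 oligonucleotides.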
